A study of Homo sapiens with 2 samples.

Results

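The proteins of the core spliceosome and its small nuclear ribonucleoproteins (snRNPs) were followed at the mRNA level by RNA sequencing of HGC-27, an established line from a human gastric cancer. The members are defined by gene name, from their place in these complexes. The set held 59 genes that encode the Sm and LSM rings, the proteins of the U1, U2, U4/U6, U5 and U11/U12 snRNPs, and the Prp19 complex, out of 16021 genes or gene models in the table. Both groups were HGC-27 cells transduced with lentivirus, and both were selected with puromycin, added 48 h after transduction, and collected 1 week later. The control group carried a non-targeting shRNA, and the other group an shRNA against DDX5, an RNA helicase of the DEAD-box family with roles in transcription and splicing. Each group was a single library, so no test, standard error or p-value was possible, and the spread between cultures was not measured. Values are FPKM, in which fragment numbers are divided by the length of the transcript and the size of the library, so that levels can be compared between genes.

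Splicing removes introns in a cycle that the spliceosome repeats on each intron. The U1 snRNP first marks the 5′ splice site, SF1 and the U2AF dimer mark the branch point and 3′ splice site, and the U2 snRNP then pairs with the branch point. The U4/U6.U5 tri-snRNP joins, U1 and U4 leave, and the Prp19 complex helps to shape the active centre made of U2, U5 and U6. Each snRNP consists of a small nuclear RNA, a ring of Sm or LSM proteins, and proteins of its own. The small nuclear RNAs themselves are not analysed here.

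DDX5 itself was measured at 170.5 FPKM with the non-targeting shRNA and 50.78 FPKM with the DDX5 shRNA, so that 29.8% of its control level remained. Of the markers fixed for the cell line, VIM, an intermediate filament of mesenchymal cells, stood at 1584 and 1271 FPKM, whereas the epithelial markers EPCAM, CDH1 and KRT18 were under 1 FPKM in both libraries and KRT8 stood at 5.24 and 1.31 FPKM. The fibroblast matrix genes DCN, LUM and COL1A1 stood at 68.13, 111.96 and 285.04 FPKM in the control and at 140.68, 120.49 and 260.5 FPKM with the DDX5 shRNA. Of the epithelial markers of the labelled adenocarcinoma, KRT8 was thus the one above 1 FPKM, while VIM and the fibroblast matrix genes were far higher. The identity of the line was taken as labelled and was not tested against these values. The part of cell composition in the values below was not tested either. Of the immune and endothelial markers listed, CD68 and VWF were at most 1.29 FPKM. In bulk RNA, fewer cells with a transcript and less of it per cell cannot be told apart.

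Core spliceosome transcripts were mostly lower in the DDX5 shRNA library, by a modest amount. Ratios are given on the log2 scale of FPKM + 1, DDX5 shRNA over non-targeting shRNA, and counts use genes with a mean of at least 1 FPKM over both libraries. Of the 59 members, 58 passed that limit. Of these, 43 had a ratio below 0 and 15 above 0, where 47.8% of 11413 genes lay below 0. At least 1.5-fold lower were 17 members, or 29.3%, against 10.1% of all genes. At least 2-fold lower were 2 members, SNRPA1 and PRPF38A, which is 3.45% against 2.26% of all genes and so near the background. None of the 58 was 1.5-fold higher or 2-fold higher, where 13.1% and 4.19% of all genes were. PLRG1, LSM4 and SF3B6 lay just under the 1.5-fold line, at ratios of 0.57, 0.56 and 0.55, so this count depends on the cutoff. The median ratio of the members was -0.41, beside 0.02 for all genes.

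These counts shifted with the scaling. When both libraries were brought to the same total FPKM, the median of all genes moved by -0.10, and 50 members lay below 0 and 8 above, with 25 at least 1.5-fold lower. At that scaling 56.7% of all genes lay below 0 and 14.3% were at least 1.5-fold lower. The 7 members that crossed 0 were SNRPD2, SNRPA, SNRPC, SF3B5, PRPF31, SNRNP35 and BCAS2, each within 0.11 of 0 on the log2 scale, and they are described below as near equal. Genes of similar level gave another point of comparison. Among 1722 genes outside the set whose mean lay between the members' quartiles, 33.0 and 105.7 FPKM, the median ratio was -0.04 and 13.0% were at least 1.5-fold lower. Together the 59 members made up 0.905% of total FPKM in the control and 0.670% in the DDX5 shRNA library.

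**Figure D1:**
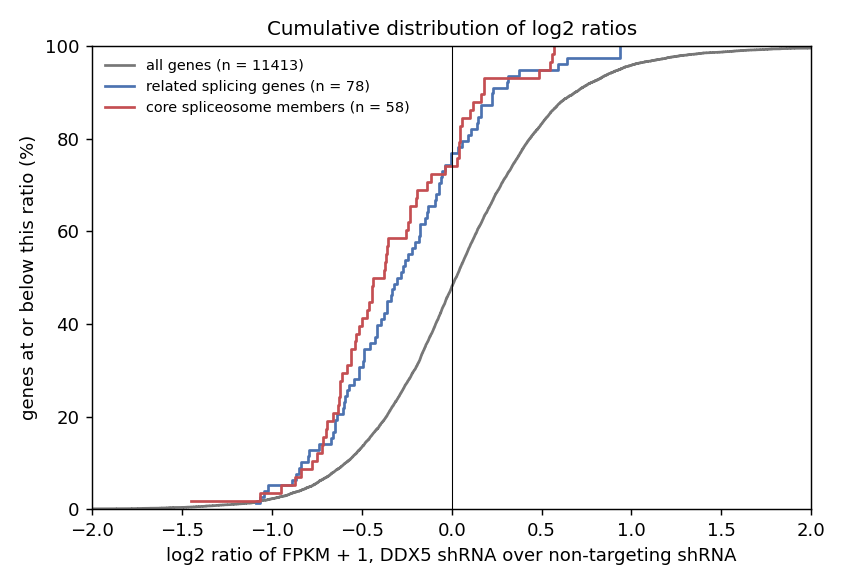
Cumulative distribution of the log2 ratio of FPKM + 1 (horizontal axis, DDX5 shRNA over non-targeting shRNA) as the percentage of genes at or below each ratio (vertical axis), for 11413 genes, 78 related splicing genes and 58 core spliceosome members. The member curve lies to the left of the curve of all genes through most of its range, with medians of -0.41 and 0.02.

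**Figure D2:**
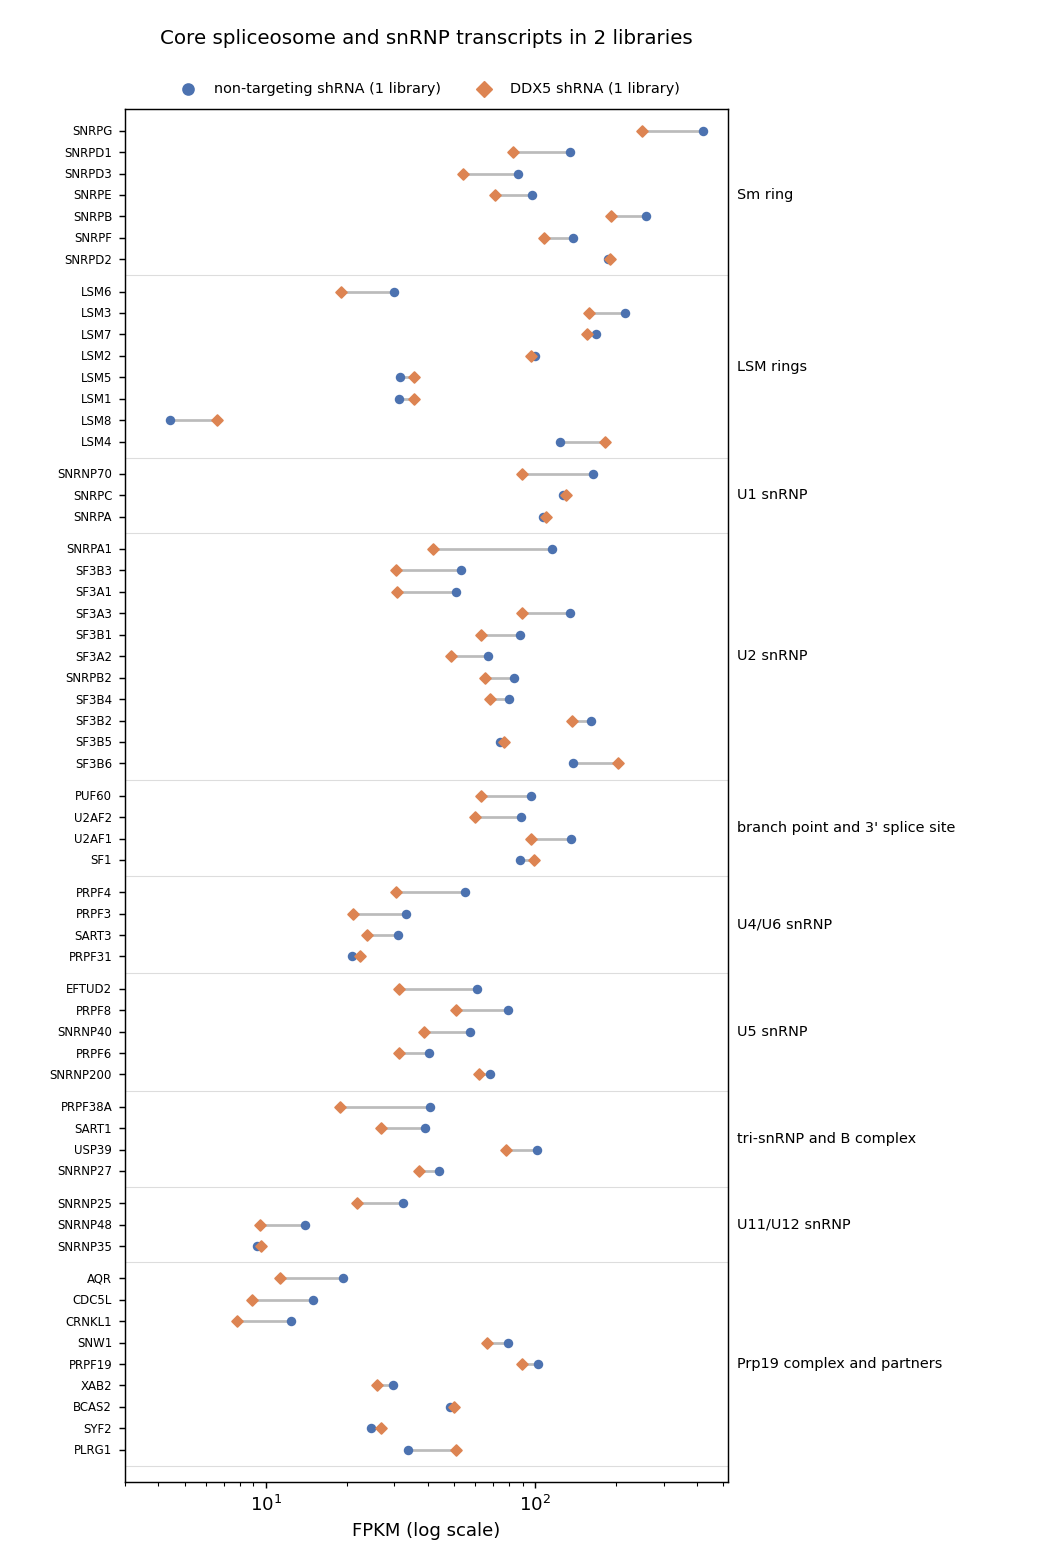
FPKM on a log axis for the 58 members with a mean of at least 1 FPKM, grouped by sub-complex and ordered by ratio within each. Circles are the non-targeting library and diamonds the DDX5 shRNA library, 1 library each. The longest line between symbols belongs to SNRPA1 (115.48 and 41.65 FPKM).

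The Sm proteins form a ring of 7 subunits around the U1, U2, U4 and U5 RNAs. Their transcripts spanned a wide range of levels, and their order was the same in both libraries. SNRPG was the most abundant, at 418.46 FPKM in the control and 248.46 FPKM with the DDX5 shRNA. It was followed by SNRPB (258.72 and 191.11 FPKM) and SNRPD2 (185.78 and 189.79 FPKM). The lower end was formed by SNRPD1 (134.9 and 82.76 FPKM), SNRPE (97.79 and 70.88 FPKM) and SNRPD3 (86.24 and 54.2 FPKM), with SNRPF between at 138.45 and 107.88 FPKM. Of the 7 subunits, 6 were lower and SNRPD2 was near equal. SNRPG, SNRPD1 and SNRPD3 were at least 1.5-fold lower, at log2 ratios of -0.75, -0.70 and -0.66. SNRPN, which encodes a relative of the SNRPB product known from neurons, was listed at 0.03 FPKM in both libraries. SNURF, which shares its locus, was listed at the same level, so almost nothing was assigned to this form. Of the 50-base windows of the SNRPN transcript, 44.2% also occurred in transcripts of other genes. The effect of this sharing on the SNRPN value was not tested.

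The LSM proteins form 2 related rings that share LSM2 to LSM7. With LSM8 the ring binds U6 RNA in the nucleus, and with LSM1 it acts in mRNA decay in the cytoplasm. These transcripts were evenly divided, with 4 of 8 members below 0 and 4 above, and a median of 0.06 that became -0.05 at the same total. LSM6 stood at 29.83 and 18.96 FPKM and was the only member of the rings at least 1.5-fold lower, and LSM3 stood at 215.04 and 158.03 FPKM. In the other direction, LSM4 stood at 123.24 and 181.82 FPKM, 0.56 on the log2 scale. LSM8, the subunit specific to the nuclear ring, was the least abundant, at 4.42 and 6.59 FPKM. LSM1, its cytoplasmic counterpart, stood at 31.27 and 35.57 FPKM. Both ring-specific subunits were thus higher with the DDX5 shRNA, with ratios of 0.49 for LSM8 and 0.18 for LSM1. At the same total these became 0.39 and 0.07, so the difference of LSM1 was small and depended on the scaling. LSM5 (31.48 and 35.39 FPKM), LSM2 (99.55 and 96.87 FPKM) and LSM7 (168.84 and 155.73 FPKM) differed by less than 0.17 on the log2 scale.

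The 3 proteins specific to the U1 snRNP had unlike ratios, with a median of 0.04 that became -0.08 at the same total. SNRNP70, the U1-70K protein that binds U1 RNA and contacts splicing regulators, had 164.53 FPKM in the control but 89.56 FPKM with the DDX5 shRNA, a ratio of -0.87. SNRPA (106.57 and 109.79 FPKM), which binds a stem-loop of U1 RNA, and SNRPC (126.41 and 129.86 FPKM), which contacts the 5′ splice site duplex, were near equal. SNRNP70 was the highest of the 3 in the control and the lowest with the DDX5 shRNA, while SNRPC stayed above SNRPA.

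The U2 snRNP held the member with the largest difference. SNRPA1, which binds a stem-loop of the U2 RNA together with SNRPB2, had 115.48 FPKM in the control and 41.65 FPKM with the DDX5 shRNA. This is 36.1% of control, or -1.45 on the log2 scale, which placed it at rank 53 of 11413 genes counted from the lowest ratio. Its binding partner SNRPB2 stood at 83.36 and 64.91 FPKM, -0.36 on the log2 scale. No window of the SNRPA1 transcript was shared with another protein-coding transcript, but 39.6% of its 50-base windows also occurred in non-coding transcripts of other genes. The effect of this sharing on its value was not tested.

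The SF3A and SF3B proteins bind U2 RNA and the branch point region. Of the 9 such transcripts in the set, 7 were lower in the DDX5 shRNA library, with a median of -0.44. SF3B3, a large scaffold protein of SF3B, stood at 52.92 and 30.42 FPKM, and SF3A1, to which the other SF3A subunits bind, at 50.98 and 30.62 FPKM, and both were at least 1.5-fold lower. SF3A3 (134.67 and 89.6 FPKM), SF3B1 (87.86 and 63.09 FPKM) and SF3A2 (66.8 and 48.9 FPKM) had ratios between -0.58 and -0.44. SF3B1 encloses the helix of U2 RNA and branch point. SF3B2 (161.44 and 137.35 FPKM) and SF3B4 (80.01 and 67.86 FPKM) had log2 ratios of -0.23 each. Of the 9, those with the shortest coding sequences, SF3B5 and SF3B6, stood apart from this pattern. SF3B5 was near equal at 74.02 and 76.94 FPKM, and SF3B6, which lies near the branch point adenosine, was higher at 138.77 and 203.19 FPKM, 0.55 on the log2 scale. SF3B6 thus moved from below SF3B2 in level in the control to above it in the DDX5 shRNA library.

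At the branch point and 3′ splice site, U2AF2, which binds the polypyrimidine tract, stood at 88.91 and 60.05 FPKM, -0.56 on the log2 scale. PUF60, a relative of U2AF2 that aids U2 binding, stood at 96.91 and 62.76 FPKM. SF1, which binds the branch point before U2 arrives, had the opposite sign, 0.18, at 87.66 and 99.47 FPKM.

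U2AF1, the small U2AF subunit that reads the AG at the 3′ splice site, was listed at 136.15 and 96.25 FPKM, 70.7% of the control level. This value depends on how reads were divided with a copy. Of the 50-base windows of the U2AF1 transcript, 93.9% also occurred in protein-coding transcripts of other genes. The copy compared here is LOC102724594 (U2AF1L5 in GENCODE v29). Over the 720 coding bases the genes did not differ at any base in either of the 2 full-length coding forms, which use 1 or the other of a pair of alternative exons. The stretch below, coding bases 131 to 203 counted from the start codon, is shown because it is where the forms differ from each other, at the 23 bases in capitals, while each form reads the same in both genes.
U2AF1, the first form: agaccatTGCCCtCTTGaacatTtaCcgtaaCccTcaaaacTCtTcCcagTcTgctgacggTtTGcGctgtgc
LOC102724594, the first form: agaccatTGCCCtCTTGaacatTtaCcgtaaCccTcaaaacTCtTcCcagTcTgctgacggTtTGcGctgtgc
U2AF1, the second form: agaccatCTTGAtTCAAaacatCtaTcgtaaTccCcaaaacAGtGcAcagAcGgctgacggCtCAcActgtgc
LOC102724594, the second form: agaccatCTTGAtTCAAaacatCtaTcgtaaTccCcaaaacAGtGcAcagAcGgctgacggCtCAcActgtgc

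A read from such a stretch could tell the forms apart but not the genes. LOC102724594 was listed at 68.47 FPKM in the control and 10.81 FPKM with the DDX5 shRNA, so its share of the sum of both genes was 33.5% and 10.1%. Their sum was 204.62 FPKM and 107.06 FPKM, or 52.3% of control and -0.93 on the log2 scale. Taken alone, U2AF1 was 1.41-fold lower, and taken with its copy 1.91-fold lower. Over the coding bases the split between the genes rests on estimation, whereas their sum does not depend on that split. The counts above used U2AF1 alone. With the sum in its place, 18 members rather than 17 were at least 1.5-fold lower. No other member shared more than 10.8% of its windows with a protein-coding transcript of another gene, and 49 of the 59 shared none. A further relative, U2AF1L4 (chosen after its value was seen), had 9.86 and 28.05 FPKM, a ratio of 1.42, so the U2AF1 family held values on both sides of 0.

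**Figure D3:**
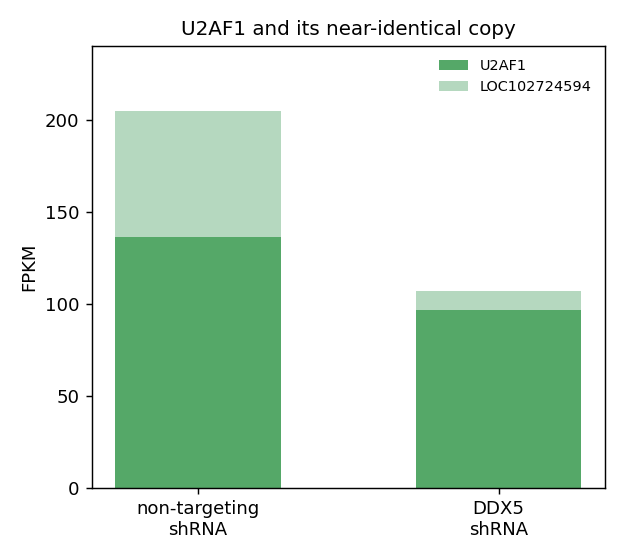
FPKM of U2AF1 (dark) and of LOC102724594 (light), stacked, in the non-targeting library and the DDX5 shRNA library, 1 library each. The stacks reach 204.62 and 107.06 FPKM, and the light part is 33.5% and 10.1% of them.

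All 5 U5 transcripts of the set were lower with the DDX5 shRNA, with a median of -0.56. EFTUD2, a GTPase that controls activation of the spliceosome, stood at 61.09 and 31.18 FPKM, 51.0% of the control level. PRPF8, the large protein that cradles the active centre, stood at 79.15 and 50.77 FPKM, -0.63 on the log2 scale. SNRNP40, a WD-repeat protein, stood at 57.51 and 38.7 FPKM, and PRPF6, which bridges U5 and U4/U6, at 40.48 and 31.21 FPKM. SNRNP200, the helicase that unwinds U4 from U6, was the least different at 68.05 and 61.82 FPKM, -0.14 on the log2 scale. PRPF8, EFTUD2 and SNRNP200 bind one another in the protein complex, yet their transcripts spanned ratios from -0.95 to -0.14.

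Among the U4/U6 proteins, PRPF4 and PRPF3, which form a pair on the U4/U6 duplex, were both at least 1.5-fold lower. PRPF4 stood at 55.07 and 30.34 FPKM and PRPF3 at 33.08 and 21.15 FPKM. PRPF31, which binds the U4 RNA, was near equal at 20.84 and 22.46 FPKM. SART3, which helps U4 and U6 to pair again after splicing, stood at 31.03 and 23.8 FPKM. All 4 proteins of the tri-snRNP and B complex list were lower. PRPF38A, which joins the spliceosome as the tri-snRNP is taken up, stood at 40.63 and 18.85 FPKM, a ratio of -1.07 that ranked 199 from the lowest of 11413. SART1 stood at 39.01 and 26.7 FPKM and USP39 at 101.74 and 78.21 FPKM, and both are needed for the tri-snRNP to form or join. SNRNP27 stood at 43.93 and 37.02 FPKM. Of the proteins of the U11/U12 snRNP, which serves the rare minor introns, SNRNP25 (32.24 and 21.91 FPKM) and SNRNP48 (13.97 and 9.49 FPKM) had ratios of -0.54 and -0.51, and SNRNP35 was near equal at 9.3 and 9.62 FPKM.

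The Prp19 complex and its partners split. CDC5L (14.98 and 8.89 FPKM), a core subunit, CRNKL1 (12.46 and 7.83 FPKM), a helical-repeat scaffold, and AQR (19.38 and 11.35 FPKM), an intron-binding helicase, were at least 1.5-fold lower, and all 3 were of low abundance in the set. PRPF19 itself, the ubiquitin ligase that gives the complex its name, stood at 102.37 and 89.13 FPKM, -0.20 on the log2 scale. SNW1 (79.43 and 66.35 FPKM), also a transcription coregulator, and XAB2 (29.76 and 25.93 FPKM), also known from DNA repair, had ratios of -0.26 and -0.19. PLRG1, a WD-repeat partner of CDC5L, had the highest ratio of the whole set, 0.57, at 33.84 and 50.67 FPKM. BCAS2 (48.23 and 49.93 FPKM) was near equal, and SYF2 stood at 24.55 and 26.79 FPKM. The 4 subunits of the Prp19 core, PRPF19, CDC5L, PLRG1 and BCAS2, thus ranged from -0.69 to 0.57.

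**Figure D4:**
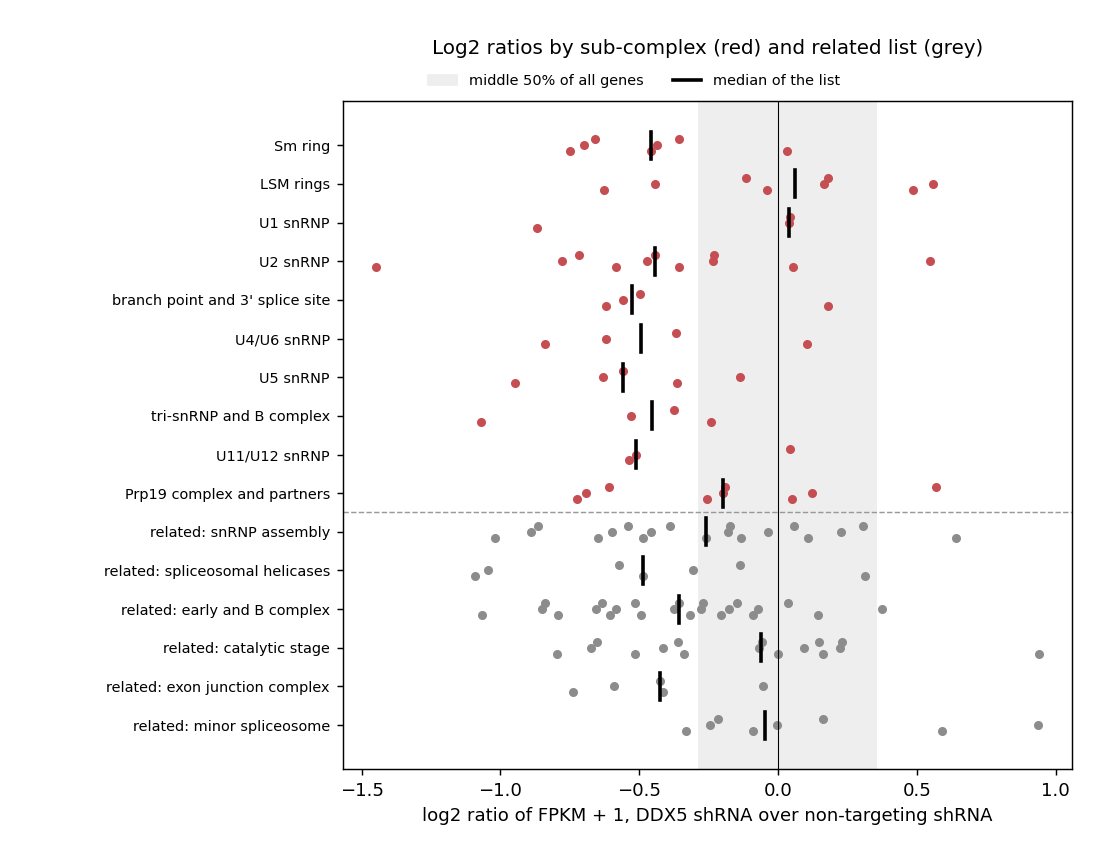
Log2 ratio of FPKM + 1 (horizontal axis, DDX5 shRNA over non-targeting shRNA) for each gene, by sub-complex (red) and related list (grey), with the list median as a bar and the middle 50% of all genes, -0.28 to 0.35, shaded. The U5 and tri-snRNP members all lie below 0, while the LSM members lie on both sides.

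Longer members tended to lie lower. Of the 29 members with a coding sequence above 1044 bases, 26 had a ratio below 0 and the median was -0.53, and of the 29 shorter members 17 lay below 0 with a median of -0.24. Among all genes the same split gave medians of -0.01 and 0.10. Across the 58 members the Spearman correlation between the ratio and coding length was -0.30, and across 11170 genes -0.13. The points come from the same pair of libraries, so these are descriptions. After correction for transcript length and GC content the members' median was -0.39 and 16 were at least 1.5-fold lower. By their approximate number of counted fragments, the members held from 268 to 12322 fragments in the control and from 283 to 8971 in the DDX5 shRNA library. These numbers take the longest transcript of each gene, so they can be too high where a shorter one was expressed.

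**Figure D5:**
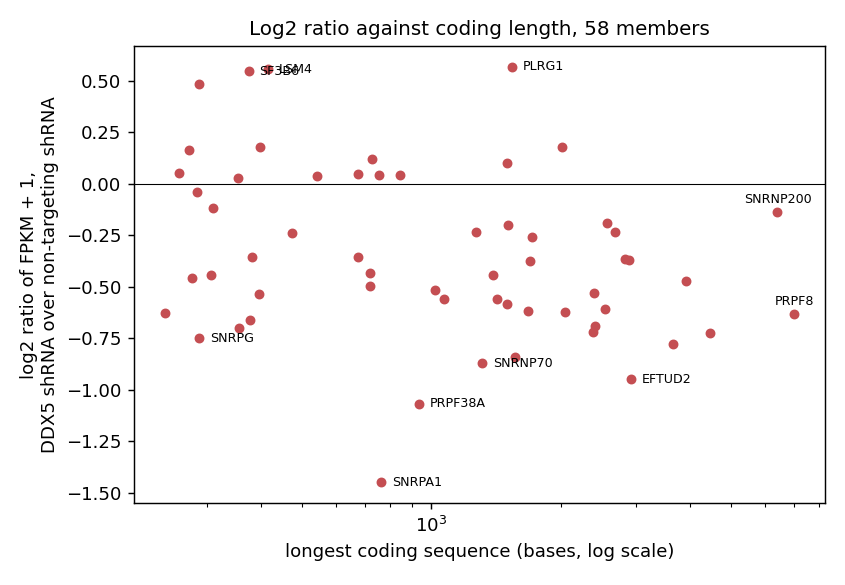
Log2 ratio of FPKM + 1 (vertical axis, DDX5 shRNA over non-targeting shRNA) against the longest complete coding sequence of each of 58 members in bases (log axis). Points above 0 are fewer to the right, where 26 of 29 members lie below 0.

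Other genes of the pathway were described through 6 lists. Of 79 genes listed, 78 passed the limit of 1 FPKM, and PRPF4B is not analysed here. Of the 78, 60 (76.9%) lay below 0, 19 (24.4%) were at least 1.5-fold lower and 4 at least 1.5-fold higher, with a median of -0.29. Of all genes, 47.8%, 10.1% and 13.1% did so, and 2.26% were at least 2-fold lower. These shares are the background for each list below. Among the core members, 74.1% lay below 0 and 29.3% were at least 1.5-fold lower, so the lower values were not particular to the core set. Of 19 genes for snRNP assembly, 5 were at least 1.5-fold lower. GEMIN4 (33.28 and 15.9 FPKM) and GEMIN5 (29.52 and 15.48 FPKM), both of the SMN complex that loads Sm rings, had the lowest ratios, and SNUPN, which imports assembled snRNPs, the highest at 13.23 and 21.17 FPKM. Of 7 spliceosomal helicases, 2 were at least 2-fold lower, DDX23 (64.28 and 29.66 FPKM), which releases U1, and DDX46 (35.93 and 16.91 FPKM), which acts with the U2 snRNP. DDX39B, which also acts in mRNA export, had the highest ratio at 160.27 and 199.13 FPKM.

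Of 23 further early and B complex proteins, 20 lay below 0 and 7 were at least 1.5-fold lower. They were led by the U2-associated U2SURP (27.43 and 12.59 FPKM) and CHERP (48.34 and 26.38 FPKM), with SUGP1 highest in ratio at 19.51 and 25.6 FPKM. All 5 exon junction complex genes lay below 0, with a median of -0.42. RBM8A (39.51 and 23.28 FPKM) and EIF4A3 (79.25 and 52.29 FPKM) had the lowest ratios and CASC3 the highest at 37.47 and 36.02 FPKM. The catalytic-stage list was nearer to all genes, with a median of -0.06 over 16 genes, 3 of them at least 1.5-fold lower. There SRRM1 (30 and 16.84 FPKM) and BUD13 (18.05 and 10.94 FPKM) had the lowest ratios, and BUD31 the highest at 73.93 and 142.64 FPKM. The 8 minor spliceosome genes had a median of -0.05. None was 1.5-fold lower and 2 were at least 1.5-fold higher, where 10.1% and 13.1% of all genes were. Of the 8, ARMC7 (9.27 and 7.17 FPKM) and RNPC3 (8.49 and 7.16 FPKM) had the lowest ratios and ZMAT5 the highest at 11.39 and 22.72 FPKM. The difference between lists was not tested.

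RefSeq promoters (GRCh38.p14) were matched for 51 of the 59 members, taking the 250 bases upstream of the first listed start. Motifs were searched on both strands, and matches of different motifs could overlap. The ETS motif CCGGAAG occurred in 23 of 51 members, 45.1%, beside 17.2% of 9279 genes past the limit of 1 FPKM and 8.82% of all 27305 promoters. The NRF1 motif occurred in 12 members, 23.5%, beside 11.3% and 5.53%. The GC box GGGCGG was found in 33 members and the CCAAT box in 19, or 64.7% and 37.3%, near the 68.7% and 35.8% of expressed genes. The E-box CACGTG occurred in 3 members and TATAAA in 1, or 5.88% and 1.96%, beside 9.18% and 4.82% of expressed genes. Members with and without the ETS motif had median ratios of -0.36 and -0.44. Matches are descriptions of these letters and not of bound factors.

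The promoters of the pair of members at least 2-fold lower, and of PLRG1, the member with the highest ratio, are shown for comparison, with the motif matches in capitals. SNRPA1 lies on the minus strand (chr15:101295249-101295498), PRPF38A on the plus strand (chr1:52404352-52404601) and PLRG1 on the minus strand (chr4:154550401-154550650), each read 5′ to 3′ on the gene's strand.
SNRPA1: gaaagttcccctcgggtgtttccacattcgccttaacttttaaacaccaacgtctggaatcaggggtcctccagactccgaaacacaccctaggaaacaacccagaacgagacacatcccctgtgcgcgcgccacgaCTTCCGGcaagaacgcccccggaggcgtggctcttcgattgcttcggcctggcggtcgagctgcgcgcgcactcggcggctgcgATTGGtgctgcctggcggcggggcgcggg
PRPF38A: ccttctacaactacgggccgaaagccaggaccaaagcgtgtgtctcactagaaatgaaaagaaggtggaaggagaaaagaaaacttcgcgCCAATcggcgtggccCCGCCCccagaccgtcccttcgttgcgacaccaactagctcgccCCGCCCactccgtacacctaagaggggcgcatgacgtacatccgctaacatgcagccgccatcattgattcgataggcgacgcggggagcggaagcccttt
PLRG1: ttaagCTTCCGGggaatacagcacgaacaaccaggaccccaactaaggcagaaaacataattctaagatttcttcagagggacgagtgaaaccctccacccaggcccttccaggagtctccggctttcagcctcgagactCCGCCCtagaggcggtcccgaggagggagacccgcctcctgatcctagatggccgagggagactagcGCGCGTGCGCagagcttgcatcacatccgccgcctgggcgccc

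SNRPA1 held 1 ETS motif and 1 CCAAT box, PRPF38A 1 CCAAT box and 2 GC boxes, and PLRG1 1 ETS motif, 1 GC box and 1 NRF1 motif. PRPF38A starts 179 bases from ORC1, a gene of the origin recognition complex that is read in the opposite direction. ORC1 stood at 17.36 and 6.12 FPKM, -1.37 on the log2 scale, so both genes of this pair were at least 2-fold lower. Over the 15 members with such a neighbour starting within 1000 bases and passing the limit of 1 FPKM, the neighbours had a median ratio of -0.05, with 8 of 15 below 0, beside -0.44 for the members themselves. Of all genes, 47.8% lay below 0.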

How the data were processed

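The authors deposited 1 table with an FPKM column per library, per the file headers. RSEM 1.2.8, Bowtie2, HISAT and the hg19 build are listed in the submitters' processing notes, without roles. Annotation, strand setting and filters: not given in the sources used here. RSEM divides shared reads by estimation, so near-identical genes can exchange values.

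Columns were assigned by sample title. Entrez numbers were matched to RefSeq names (GRCh38.p14) for 15289 of 16021 rows, and all 59 members were found. The ratio was log2 of FPKM + 1, which understates differences of low genes. Counts and medians used the 11413 genes with a mean of at least 1 FPKM. Transcript length, coding length, GC content and shared 50-base windows, taken every 10 bases, came from the longest GENCODE v29 transcripts. Depth is not stated. For low genes with 1 transcript, FPKM times length (less 150 bases) was fitted to steps worth about 1.50e+07 and 1.49e+07 fragments. At these, 56.8% and 58.2% of 132 and 146 genes lay within 0.15 of a whole step. The step was the best of many tried, and the share expected without steps was not computed. Fragment numbers are thus approximate and cover counting only.

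The members and lists were chosen with earlier results of these data known. All members were named, with the 2 lowest and the highest gene of each related list at a mean of at least 5 FPKM. Scripts used Python 3.11.15, numpy 2.4.6, pandas 2.3.3 and matplotlib 3.10.9, and were tested on simulated data.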

Additional observations from a re-analysis of the deposited data

How the results depend on the processing

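The members' median ratio, the count below 0 and the counts at least 1.5-fold and 2-fold lower were recomputed under 10 alternatives: a pseudocount of 0.1 or 5, a limit of 5 FPKM or none, the same total FPKM, ratios centred on the all-gene median or on its mean after trimming 30% from either tail, an adjustment for GC and length, U2AF1 summed with its copy, and leaving out U2AF1, the single member with over 20% of its windows shared with another protein-coding gene. The median stayed between -0.52 and -0.37, and its distance below the median of all genes between -0.44 and -0.39. It moved most at the same total, to -0.52. The count below 0 ranged from 42 to 50, and the count at least 1.5-fold lower from 12 with a pseudocount of 5, where 5.46% of all genes were, to 25 at the same total, where 14.3% were. The count at least 2-fold lower was 1 with a pseudocount of 5, and 3 at the same total and with the length and GC correction, beside 2. Of 58 members, 43 stayed below 0 and 8 above 0 under every alternative run on them, and 7 changed sign. No paired analysis was possible because each group is 1 library. Without replicates, no alternative measures the spread between cultures.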

Other observations

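Some relatives of the members lie outside the set and were chosen after their values were seen. LSM10 and LSM11, which replace SNRPD1 and SNRPD2 in the ring of the U7 snRNP for histone mRNA processing, stood at 52.69 and 53.27 FPKM and at 2.97 and 3 FPKM in the non-targeting and DDX5 shRNA libraries. Both differed by less than 0.02 on the log2 scale, where SNRPD1 had a ratio of -0.70 and SNRPD2 of 0.03. LSM12 (55.41 and 59.24 FPKM), LSM14A (62.7 and 53.13 FPKM) and LSM14B (22.22 and 26.31 FPKM) had ratios of 0.09, -0.23 and 0.23. PRPF38B, the paralog of PRPF38A, had 31.46 and 21.77 FPKM, or -0.51 on the log2 scale.

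Among the members with a gene starting nearby on the opposite strand, the partners of EFTUD2 and USP39 went the other way. So did those of SNRPD2, SF3A1 and SF3A2, with partner ratios of -0.21, 0.07 and 0.08. DNAAF19, which starts 284 bases from EFTUD2, stood at 2.34 and 5.33 FPKM, and TMEM150A, which starts 163 bases from USP39, at 3.05 and 10.21 FPKM, with log2 ratios of 0.92 and 1.47. The partners of SNRNP40 and SNRNP25 were lower, with ZCCHC17 at 22.24 and 13.61 FPKM and POLR3K at 71.44 and 45.3 FPKM. Member and partner lay on the same side of 0 in 10 of 15 pairs. Most of these members lay below 0, as did 8 of 15 partners, and the number expected for unrelated pairs was not computed. Some pairs on the same side lay close to 0, such as PRPF31 and TFPT at 0.10 and 0.01.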
